A study of Mus musculus with 5 samples.

Results

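The clustered protocadherins are cadherin-like surface proteins encoded side by side in the alpha, beta and gamma clusters. Their genes were taken as those whose symbol begins with Pcdha, Pcdhac, Pcdhb, Pcdhga, Pcdhgb or Pcdhgc followed by a number. The rule found 58 of the 55573 genes in the table, with 14 in the alpha cluster, 22 in the beta cluster and 22 in the gamma cluster. Expression was measured by RNA sequencing in 3 tumours of Th-Cre:MYC mice and in normal pancreas taken from 2 wild-type littermates, which was perfused with an RNase inhibitor before removal. The family was selected on the measured difference between these tumours and normal pancreas, which was known beforehand. The tumour mice came from a cross of TH-Cre with CAG-STOPflox/flox-MYC animals, so Cre made from the tyrosine hydroxylase promoter removes a stop in front of MYC in cells that have used that promoter. The series title presents a neuroblastoma model, and the design text calls the tumours pancreas tumours. Sex and age are not given. Tumours 1 and 2 carry one number in their titles and tumour 3 another, and the labels do not tell if the first pair came from 1 mouse. Tumours 1 and 2 may therefore not be independent. The spread between samples may in part be technical and may understate the spread between mice.

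Clustered protocadherins are known best from neurons. Each alpha and gamma gene consists of its own large first exon with its own promoter, spliced to a few constant exons shared by the whole cluster, whereas each beta gene is complete in itself. A neuron switches on a mostly random subset of the variable genes, through CTCF and cohesin looping to distant enhancers and through the loss of DNA methylation at single promoters, and the set of proteins on its surface then lets it tell its own processes from those of other cells. The C-type genes at the end of the alpha and gamma clusters (Pcdhac1, Pcdhac2, Pcdhgc3, Pcdhgc4 and Pcdhgc5) are less subject to this choice and are expressed more evenly from cell to cell.

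All 58 genes lie on the plus strand of chromosome 18. In GRCm38 coordinates with the GENCODE M21 annotation, the alpha cluster spans bases 36930184 to 37187661, the beta cluster 37264938 to 37524479 and the gamma cluster 37661793 to 37841873. The symbol Pcdha11 stands for 2 genes of the table, ENSMUSG00000007440 and ENSMUSG00000102206 behind it, which are called here the first and the second Pcdha11. Of the stretches of 100 bases in a gene's transcripts, a median of 99.8% occurred in no other gene for beta genes, against 44.6% for alpha genes and 56.4% for gamma genes. The estimated counts had accordingly been divided between alpha genes and between gamma genes, and 2.38% of nonzero alpha values and 1.52% of nonzero gamma values in the tumours were whole numbers (within 0.005), against 81.8% of beta values. The summed counts of a cluster do not depend on how reads were divided within it, whereas the level of a single alpha or gamma gene does, and the summed TPM does in part because genes differ in length. For Pcdha4, 11.6% of the stretches occurred in no other gene and 50.7% in other alpha genes. The rest occurred in genes not counted here as alpha genes, wherever they lie.

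The libraries held 15074489, 12601496 and 6611967 estimated counts in tumours 1, 2 and 3, against 48848987 and 51669489 in the normal pancreas libraries. RNAs of the class misc_RNA, which includes small non-coding RNAs such as 7SL and 7SK, took between 22.03% and 25.3% of the tumour counts, against 0.00116% and 0.00032% of the normal counts. The library kit is not stated for either tissue, so any difference in library preparation cannot be told apart from the difference in tissue, and this holds for every tumour and normal value below. The summed level of 6 acinar enzyme markers was 2.29 to 801 TPM (a level per transcript length, scaled to a fixed total in each library) in the tumours, against 335857 and 340284 TPM in normal pancreas. All 8 neuron and neuroendocrine markers were higher in the tumours (edgeR adjusted p under 0.05). Of all genes tested, 39.2% were higher and 27.8% lower, and these shares stand beside the counts of every marker list here. The 8 markers had a summed level of 321 to 564 TPM in tumours and of 1.49 and 1.52 TPM in normal pancreas. Elavl4 and Snap25 were at 0 in normal pancreas, so both passed the filter on low counts through the tumours alone. Of the other marker lists, pericyte and smooth muscle genes summed to 57.9 to 84.4 TPM in tumours and to 2.54 and 2.90 TPM in normal pancreas (4 of 4 tested higher), and fibroblast genes to 73.0 to 113 TPM in tumours and to 33.2 and 41.7 TPM in normal pancreas (3 of 6 higher, 2 lower). Endothelial genes summed to 23.6 to 26.9 TPM in tumours and to 6.96 and 8.40 TPM in normal pancreas (2 of 5 higher, 1 lower). Immune genes summed to 4.0 to 17.0 TPM in tumours and to 1.53 and 3.49 TPM in normal pancreas (1 of 4 tested higher), and Schwann cell genes to 0.53 to 0.81 TPM in tumours and to 0.14 and 0.27 TPM in normal pancreas (1 of 1 tested higher). TPM has a fixed total, so acinar RNA in normal pancreas leaves less of it for every other gene. With TMM scaling the median log2 fold change was 7.68 for neuron and neuroendocrine and 3.11 for pericyte and smooth muscle genes. It was 0.78 for fibroblast, 0.50 for endothelial and -0.12 for immune genes, and 1.31 for the Schwann gene tested, against 0.38 over all genes. The part of cell composition in the results that follow was not tested. With only protein-coding genes beside the members in the fit, 51 members were called higher in tumours (5051 of 14066 genes tested). In the fit with all RNA classes 50 were (6587 of 16810 genes).

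The 3 clusters were higher in every tumour than in either normal pancreas, and their order of difference was alpha, then beta, then gamma. The alpha cluster summed to 9.94, 5.11 and 6.34 TPM in tumours 1, 2 and 3, against 0.03 TPM in each normal library. The beta cluster summed to 18.3, 9.90 and 10.1 TPM in tumours 1, 2 and 3, against 0.20 and 0.16 TPM in normal pancreas. The gamma cluster summed to 30.7, 19.2 and 20.6 TPM in tumours 1, 2 and 3, against 2.34 and 2.41 TPM in normal pancreas. Tumour 1 was the highest of the tumours for each cluster, and no tumour value overlapped a normal one. In bulk tissue, fewer cells that express a gene and less of its RNA per cell cannot be told apart.

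**Figure D1:**
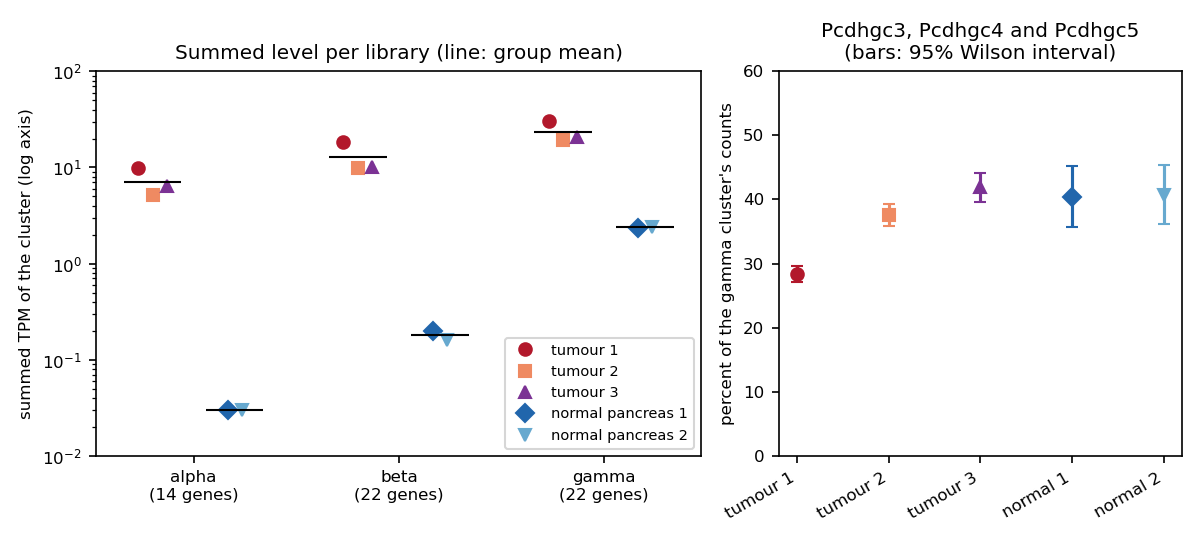
Left, summed TPM of each cluster per library on a log axis, with tumours left of normal pancreas and a line at each group's mean (3 tumours, 2 normal libraries); every tumour lies above both normal libraries, and normal pancreas has 0.03 TPM for alpha against 2.34 and 2.41 TPM for gamma. Right, percent of the gamma cluster's estimated counts that fell on Pcdhgc3, Pcdhgc4 and Pcdhgc5, with 95% Wilson intervals; the tumours lie at 28.4%, 37.6% and 41.9% and the normal libraries at 40.4% and 40.7%.

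The same order held in counts. Alpha genes had 1973, 986 and 602 estimated counts in tumours 1, 2 and 3, against 6 in each normal library. Beta genes had 2929, 1562 and 814 counts in the tumours, against 33 and 30 in normal pancreas, and gamma genes 5304.5, 3087 and 1837 in the tumours, against 399 and 428 in normal pancreas. In normal pancreas the gamma cluster was thus well detected and the alpha cluster hardly at all. With each cluster fitted as 1 summed gene in edgeR, on TMM-scaled counts, the log2 fold change of tumour over normal pancreas was 6.52 (SE 0.37) for alpha, 4.69 (SE 0.29) for beta and 1.98 (SE 0.21) for gamma. Since this contrast was known when the family was chosen, these values and all calls on its members describe the libraries and carry no p-value. The median log2 fold change of the 16810 genes tested was 0.38 with TMM scaling and 3.55 with scaling to total counts, under which the cluster sums were 9.66, 7.87 and 5.15. On log2(TPM + 1), which compresses low levels, they were 2.94, 3.49 and 2.83, with beta ahead of alpha.

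The make-up of the family differed between the tissues as well, on a scale that needs no normalisation between libraries. The alpha cluster held 16.3 ± 1.19% of the family's TPM in tumours (SD, n = 3) and 1.16 ± 0.01% in normal pancreas (SD, n = 2). Beta held 29.1 ± 1.86% in tumours and 6.97 ± 1.15% in normal pancreas, and gamma held 54.6 ± 2.16% in tumours and 91.9 ± 1.16% in normal pancreas, with the same n. The clusters' shares were close together among the tumours and did not overlap with those of normal pancreas. TPM was deposited to 2 decimals, which is coarse for alpha and beta genes in normal pancreas.

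Of the 58 genes, 50 had an edgeR adjusted p under 0.05 with a higher level in tumours, against 39.2% of all genes tested, and 0 were lower, against 27.8% of all genes. By an unadjusted p under 0.05 and by DESeq2 the lower members also numbered 0. The 50 were all 14 alpha genes, all 22 beta genes and 14 of 22 gamma genes. Every tumour lay above both normal libraries in TMM-scaled CPM for 54 members, against 46.8% of all genes. The 4 genes whose groups overlapped were Pcdhga2, Pcdhga4, Pcdhgb2 and Pcdhga8. The median log2 fold change was 8.13 for alpha, 5.33 for beta and 1.88 for gamma genes. Fitted folds are unbounded for genes at 0 in normal pancreas, and with those genes set at their lower bound the medians were 4.45 for alpha, 4.14 for beta and 1.88 for gamma. All 58 passed the filter on low counts, and the 16 genes at 0 in both normal libraries (10 alpha, 6 beta) did so through the tumours alone.

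**Figure D2:**
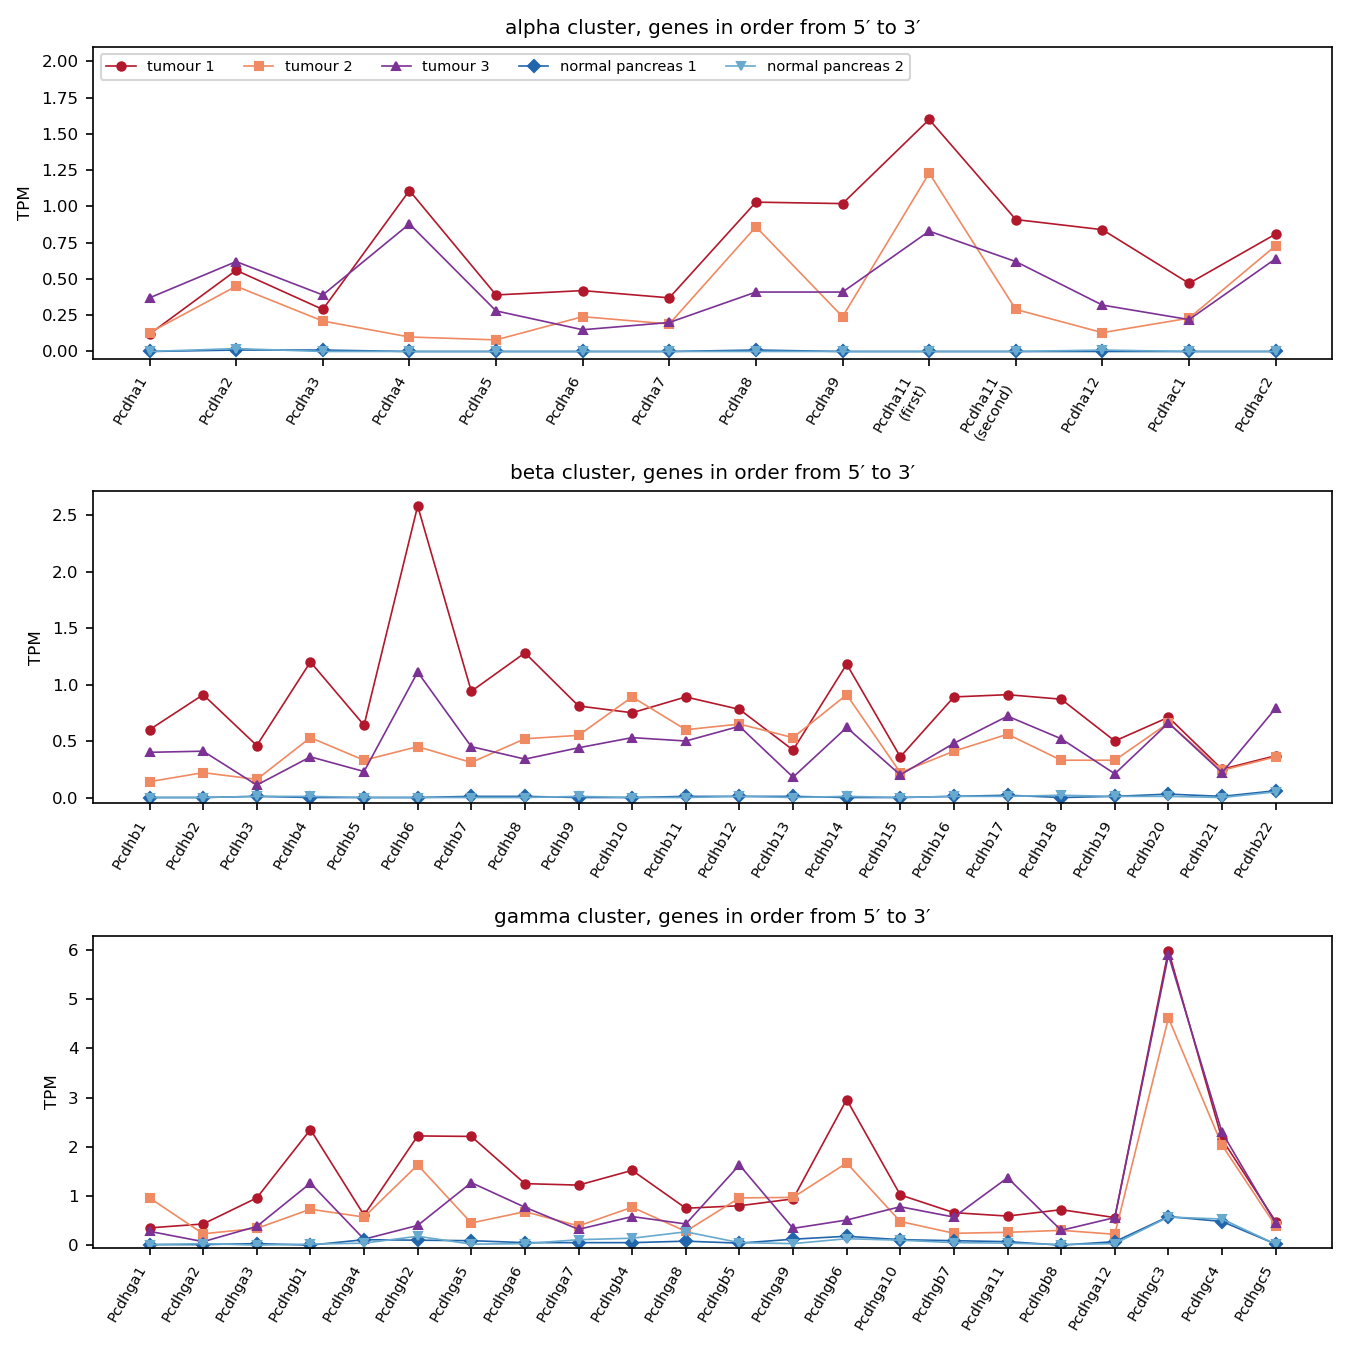
TPM of each member in every library, with genes in order along the chromosome in each cluster (lines join genes of 1 library and carry no value between genes). The normal libraries lie at 0 to 0.02 TPM across alpha and at 0 to 0.06 TPM across beta, and reach 0.58 TPM at Pcdhgc3 in gamma; the tumours differ from each other in which genes peak.

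In the alpha cluster every gene was expressed at a low level in all 3 tumours. The first Pcdha11 was the most abundant alpha gene over the libraries, with 1.60, 1.23 and 0.83 TPM in tumours 1, 2 and 3, against 0 counts in both normal libraries, and was at least 72.0-fold higher in tumours (against a floor of 3 counts over the normal group). The second Pcdha11 had 0.91, 0.29 and 0.62 TPM in the tumours, against 0 in normal pancreas, at least 21.9-fold higher. Both Pcdha11 genes were thus detected in each tumour and in neither normal library, though the first one alone led the cluster in tumours 1 and 2. Pcdha4 had 1.11, 0.10 and 0.88 TPM in tumours 1, 2 and 3, against 0 in normal pancreas, at least 21.7-fold higher. Its 11.1-fold range was the widest between tumours of any member. Leaving out either normal library ended the call of Pcdha4, and without tumour 1 its bound was 13.0-fold.

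Pcdha8 was detected in every tumour and in 1 normal library, with 1.03, 0.86 and 0.41 TPM in tumours 1, 2 and 3 and 0.01 and 0 TPM in normal pancreas. The ratio of its pooled counts was 69.4 (95% exact interval 19.1 to 575, counting error only), and 34.3 without normal pancreas 2. Pcdha1, the first gene of the cluster, had 0.12, 0.13 and 0.37 TPM in the tumours, against 0 in normal pancreas, at least 8.69-fold higher. Of the 3 alpha genes highest in tumour 3 it had the widest gap to the other tumours, and its bound was 5.88-fold without tumour 3. Pcdha2 was the alpha gene with the most normal counts, at 111, 77.6 and 56.7 estimated counts in tumours 1, 2 and 3 and 2.20 and 3.41 in normal pancreas (log2 fold change 4.01, SE 0.50). Over the 10 alpha genes at 0 in both normal libraries the lower bounds ran from 8.69-fold at Pcdha1 to 72.0-fold at the first Pcdha11.

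The alpha C-type genes followed the rest of their cluster. Pcdhac2, which in mouse is needed for serotonergic axons to spread evenly through their targets, had 0.81, 0.73 and 0.64 TPM in tumours 1, 2 and 3, against 0 counts in both normal libraries, at least 45.4-fold higher. Pcdhac1 had 0.47, 0.23 and 0.22 TPM in the tumours, against 0 in normal pancreas, at least 18.3-fold higher (13.2-fold without tumour 1). Pcdhac2 varied less between the tumours than the variable alpha genes named above. Together both genes took 15.0% (95% Wilson interval 13.5 to 16.7), 20.9% (18.5 to 23.5) and 16.6% (13.8 to 19.8) of the alpha counts in tumours 1, 2 and 3. With 6 alpha counts in each normal library the share there could not be measured.

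The beta genes, whose counts hardly depend on shared reads, were all higher in tumours. Pcdhb6 had 2.58, 0.45 and 1.11 TPM in tumours 1, 2 and 3, against 0 counts in both normal libraries, at least 45.3-fold higher, and at least 23.5-fold higher without tumour 1. Tumour 1 was far above the other tumours for this gene, and its 5.73-fold range in TPM was the widest of the beta genes. Pcdhb14 had 1.18, 0.91 and 0.62 TPM in the tumours, against 0 and 0.01 TPM in normal pancreas. Its counts of 424, 297 and 108 in tumours against 1 and 2 in normal pancreas gave a pooled ratio of 87.8 (95% exact interval 29.9 to 427). Its tumour values spread less than the median beta gene, for which the highest tumour exceeded the lowest 2.29-fold.

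Pcdhb17 had 0.91, 0.56 and 0.72 TPM in tumours 1, 2 and 3, against 0.02 and 0.01 TPM in normal pancreas (log2 fold change 4.13, SE 0.49, and 4.73 without normal pancreas 1). Pcdhb10 had 0.75, 0.89 and 0.53 TPM in the tumours, against 0 in normal pancreas, at least 21.6-fold higher, and was 1 of the 2 beta genes highest in tumour 2. Pcdhb8 had 1.28, 0.52 and 0.34 TPM in the tumours, against 0.01 and 0 TPM in normal pancreas, with a pooled ratio of 30.8 (95% exact interval 8.42 to 256) that was 15.2 without normal pancreas 2. None of the 3 genes overlapped between the groups. The first beta gene, Pcdhb1, had 0.60, 0.14 and 0.40 TPM in tumours 1, 2 and 3, against 0 in normal pancreas, at least 9.96-fold higher and 6.31-fold without tumour 1. The last, Pcdhb22, had 0.37, 0.36 and 0.79 TPM in the tumours, against 0.06 and 0.05 TPM in normal pancreas (log2 fold change 2.32, SE 0.56), and was not called when either normal library was left out. Pcdhb22 had the smallest fold change of the beta genes, the highest normal level, and its highest tumour value in tumour 3.

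The few normal counts of beta genes were unevenly spread along the cluster. The 7 genes from Pcdhb16 to Pcdhb22 had 907, 532 and 340 counts in tumours 1, 2 and 3 and 24 in each normal library. The 7 genes from Pcdhb9 to Pcdhb15 had 960, 711 and 268 counts in the tumours and 5 and 4 in normal pancreas, and the 8 genes from Pcdhb1 to Pcdhb8 had 1062, 319 and 206 counts in the tumours and 4 and 2 in normal pancreas. Most of the few beta counts of normal pancreas thus came from the end of the cluster next to gamma, and all 6 beta genes with 4 or more pooled normal counts were there. In the tumours no single slope along the cluster was shared, since the Spearman correlation of position with TPM over the 22 genes was -0.38 in tumour 1 and 0.27 in tumours 2 and 3, a description over genes that share a library. Mean TPM of Pcdhb1 to Pcdhb8 was 1.08 in tumour 1, 0.33 in tumour 2 and 0.43 in tumour 3, and that of Pcdhb16 to Pcdhb22 was 0.64, 0.41 and 0.51.

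The gamma cluster was the one already present in normal pancreas, with 20 and 21 of its 22 genes at 1 count or more in the normal libraries, and its folds were the smallest. Among its groups, 3 of 3 C-type genes, 6 of 12 gamma A genes and 5 of 7 gamma B genes were called higher in tumours, against 39.2% of all genes tested. Pcdhgc3, a C-type gene whose protein has been reported to bind the Wnt scaffold Axin1, was the most abundant member of the whole family. It had 5.99, 4.62 and 5.90 TPM in tumours 1, 2 and 3, against 0.58 and 0.57 TPM in normal pancreas (log2 fold change 1.78, SE 0.22). Pcdhgc4, which mouse interneurons need to survive, had 2.15, 2.03 and 2.29 TPM in the tumours, against 0.48 and 0.53 TPM in normal pancreas (log2 fold change 1.57, SE 0.23). Pcdhgc5, which is known from the postnatal brain, had 0.48, 0.39 and 0.44 TPM in the tumours, against 0.02 and 0.02 TPM in normal pancreas (log2 fold change 3.14, SE 0.43). The 3 C-type genes varied little between tumours, and their calls held when any 1 library was left out.

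The variable gamma genes were less even. Pcdhgb6 had 2.96, 1.67 and 0.51 TPM in tumours 1, 2 and 3, against 0.18 and 0.13 TPM in normal pancreas (log2 fold change 1.98, SE 0.63), and was not called when either normal library was left out. Pcdhgb2 had 2.22, 1.63 and 0.40 TPM in the tumours, against 0.10 and 0.18 TPM in normal pancreas, and its log2 fold change of 1.44 (SE 0.54) missed the threshold, though not when tumour 3, its lowest tumour, was left out (1.79). Pcdhgb1 had 2.35, 0.73 and 1.26 TPM in the tumours, against 0 and 0.02 TPM in normal pancreas (log2 fold change 5.61, SE 0.90). Its 4.29 normal counts all lay in normal pancreas 2, without which none was left, and without normal pancreas 1 the value was 4.66. The first gamma gene, Pcdhga1, had 0.35, 0.96 and 0.28 TPM in tumours 1, 2 and 3, against 0.01 TPM in each normal library (log2 fold change 3.96, SE 0.79, and 3.31 without tumour 2).

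The 8 gamma genes not called were Pcdhga2, Pcdhga4, Pcdhgb2, Pcdhga7, Pcdhga8, Pcdhga9, Pcdhgb7 and Pcdhga12. They were singled out after their values were seen. Pcdhga8 stood apart with 0.75, 0.28 and 0.43 TPM in tumours 1, 2 and 3, against 0.08 and 0.27 TPM in normal pancreas, and a log2 fold change of -0.01 (SE 0.60). It was the only member whose log2 fold change was negative in any of the 16 settings, in 5 of them. The value was -0.61 without normal pancreas 1 and 1.08 without normal pancreas 2, so it rested on unlike normal libraries. Its counts were 144, 48.4 and 39.9 in the tumours, against 16.7 and 55.6 in normal pancreas, and its groups overlapped in CPM. The other 7 had log2 fold changes of 1.26 to 2.103. A missed threshold does not show that their levels were equal.

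**Figure D3:**
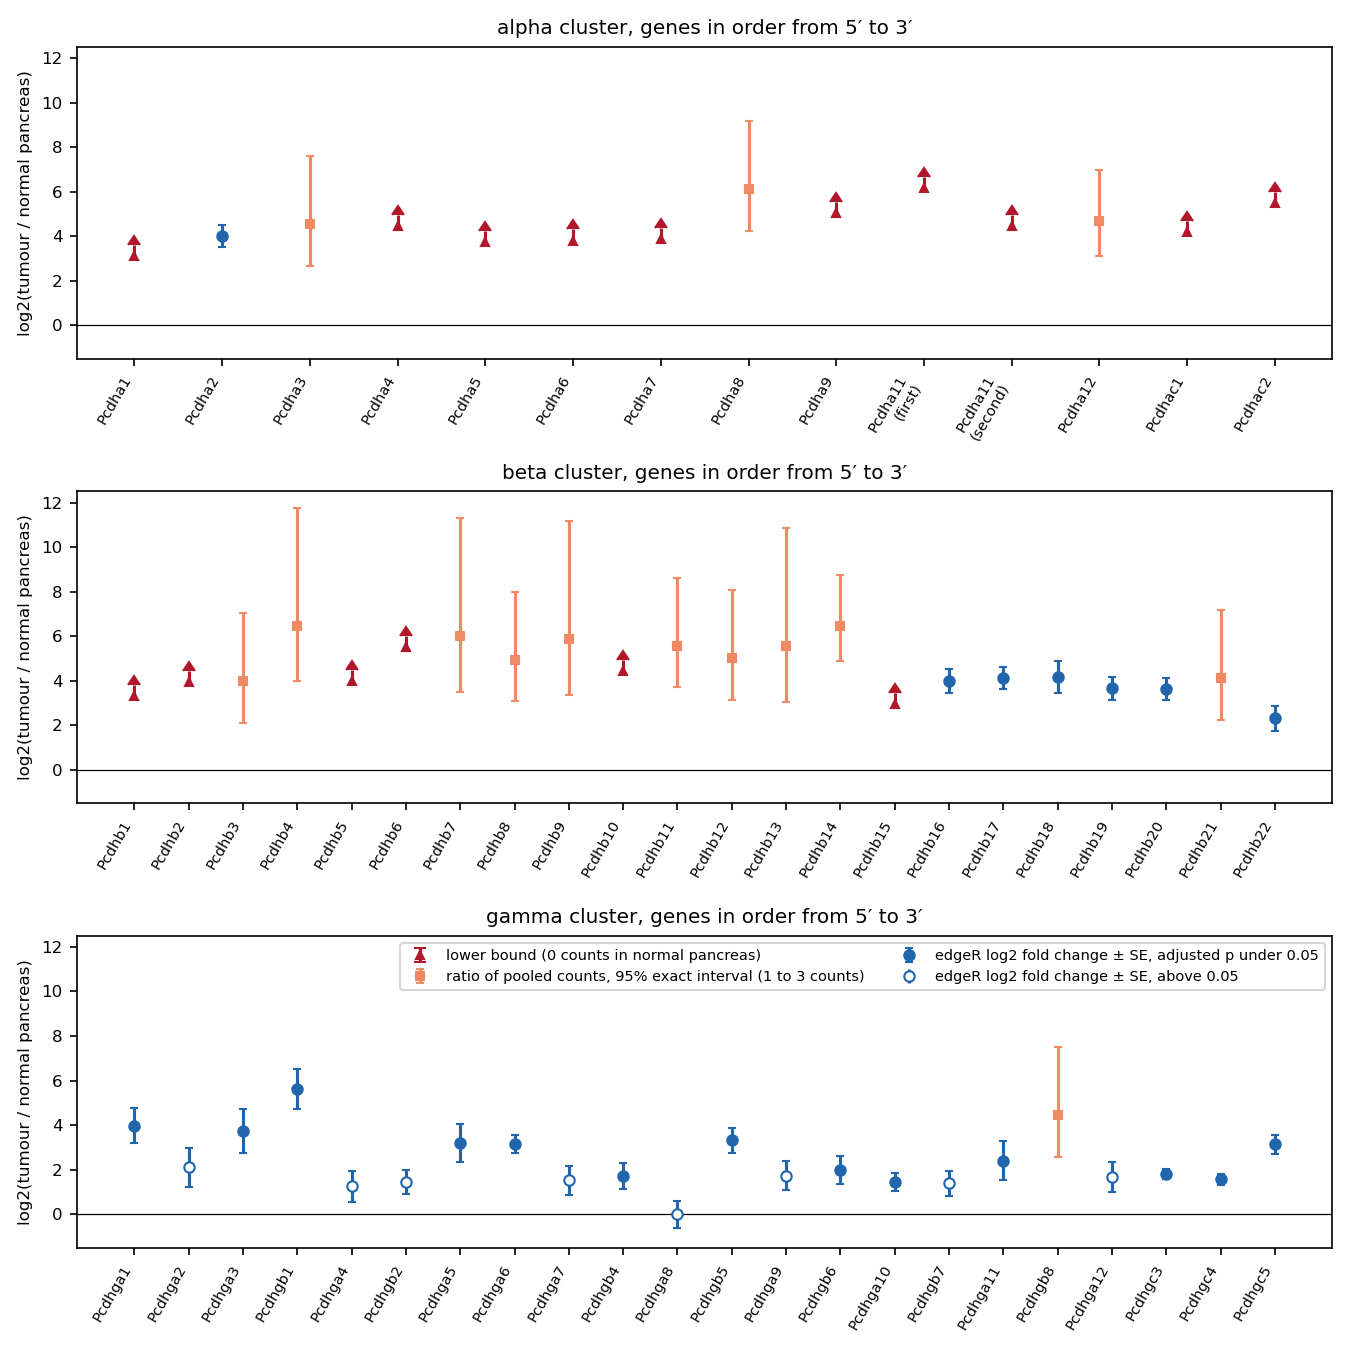
Log2 ratio of tumour over normal pancreas for each member in chromosomal order. Triangles with an arrow are lower bounds for genes at 0 counts in normal pancreas, squares are ratios of pooled counts with 95% exact intervals for genes at 1 to 3 normal counts, and circles are edgeR log2 fold changes ± SE (filled where the adjusted p was under 0.05); the gamma genes lie lower than most alpha and beta genes and Pcdhga8 lies at the zero line.

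The C-type share of the gamma cluster differed among the tumours. Pcdhgc3, Pcdhgc4 and Pcdhgc5 together took 28.4% (95% Wilson interval 27.2 to 29.6), 37.6% (35.9 to 39.3) and 41.9% (39.7 to 44.2) of the gamma counts in tumours 1, 2 and 3. In normal pancreas they took 40.4% (35.7 to 45.2) and 40.7% (36.1 to 45.4). The lowest share was that of tumour 1. The intervals cover counting error alone, on reads divided between genes, and do not measure the spread between samples. As a share of TPM the values were 28.0%, 36.7% and 42.0% in tumours 1, 2 and 3 and 46.2% and 46.5% in normal pancreas, and every tumour was lower. The effective number of gamma genes (1 over the summed squares of their TPM shares) was 12.3, 9.97 and 8.25 in tumours 1, 2 and 3 and 7.93 and 7.42 in normal pancreas. Tumour 1 thus spread its gamma RNA over more genes, with Pcdhgc3 at 19.5% of the gamma TPM, against 24.1% and 28.7% in tumours 2 and 3 and 24.8% and 23.7% in normal pancreas.

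The tumours used the same genes in unequal measure. Tumour 1 had the highest TPM of the tumours for 47 of the 58 genes, tumour 2 for 4 and tumour 3 for 7, and the highest tumour exceeded the lowest by a median of 2.66-fold over all members. Tumours 1 and 2 share a number in their titles, yet their ranking of alpha genes by TPM was not more alike than that of tumours 1 and 3, with Spearman correlations over 14 genes of 0.47 for tumours 1 and 2, 0.69 for tumours 1 and 3 and 0.41 for tumours 2 and 3. Over the 22 beta genes the values were 0.37, 0.44 and 0.56 in the same order of pairs. Over the 22 gamma genes they were 0.65, 0.51 and 0.31, against 0.68 for the pair of normal libraries. These describe genes within shared libraries and, in alpha and gamma, genes with shared reads.

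The effective number of genes was 10.8, 7.75 and 11.3 of 14 for alpha and 16.7, 18.1 and 17.6 of 22 for beta in tumours 1, 2 and 3. No tumour was dominated by 1 gene. The leading alpha gene was the first Pcdha11 in tumours 1 and 2, with 16.1% and 24.1% of the alpha TPM, and Pcdha4 in tumour 3 with 13.9%. The leading beta gene was Pcdhb6 in tumours 1 and 3, with 14.1% and 11.0% of the beta TPM, and Pcdhb14 in tumour 2 with 9.19%. Along the alpha cluster, the 4 genes from Pcdha9 to Pcdha12 averaged 1.09, 0.47 and 0.55 TPM in tumours 1, 2 and 3 and the 4 genes from Pcdha1 to Pcdha4 averaged 0.52, 0.22 and 0.57 TPM. The mean of the later variable genes was thus higher in tumours 1 and 2 and not in tumour 3. In tumour 2 it rested largely on the first Pcdha11 at 1.23 TPM. Pcdha9, the second Pcdha11 and Pcdha12 had 0.24, 0.29 and 0.13 TPM in that tumour. The medians in tumour 2 were 0.265 TPM for Pcdha9 to Pcdha12 and 0.17 TPM for Pcdha1 to Pcdha4. In the gamma cluster without its C-type genes, position and TPM had Spearman correlations of -0.09, -0.27 and 0.36 in tumours 1, 2 and 3 over 19 genes, with no shared direction.

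The regulators of the clusters moved mostly upward. Of 24 genes for CTCF, cohesin and its loaders, DNA methylation, SMCHD1, REST and histone methylation, 15 were higher and 2 lower in tumours (edgeR adjusted p under 0.05), against 39.2% and 27.8% of all genes, with a median log2 fold change of 0.68 against 0.38 over all genes. Dnmt1, the methyltransferase that copies DNA methylation at replication, had 4.18, 4.08 and 4.01 TPM in tumours 1, 2 and 3, against 0.25 and 0.21 TPM in normal pancreas (log2 fold change 2.77, SE 0.19, edgeR adjusted p = 7.2e-05). Tet1, an enzyme that oxidises methylated cytosine, had 2.15, 1.31 and 1.18 TPM in the tumours, against 0.04 and 0.02 TPM in normal pancreas (log2 fold change 4.24, SE 0.34, edgeR adjusted p = 0.00012). Smchd1, a chromatin protein that keeps clustered protocadherins silent in mouse cells, had 3.94, 4.66 and 3.32 TPM in the tumours, against 0.75 and 0.48 TPM in normal pancreas (log2 fold change 1.58, SE 0.14, edgeR adjusted p = 0.00017). Each of the 3 was above both normal libraries in every tumour, as were 16 of the 24 regulators and 46.8% of all genes tested. Dnmt1 and Tet1 were picked by their small p.

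Ctcf, which encodes the looping factor that binds these promoters, went the other way on this scale. It had 6.21, 5.84 and 5.32 TPM in tumours 1, 2 and 3, against 2.95 and 3.14 TPM in normal pancreas, while its TMM-scaled log2 fold change was -0.64 (SE 0.14, edgeR adjusted p = 0.0064). Its sign depends on scaling, since with total counts the log2 fold change was 2.54 and all 24 regulators were higher. With total counts 15681 of all 16810 genes tested were also higher. The median log2 fold change over all genes was 0.38 with TMM and 3.55 with total counts, so Ctcf lay below the median with both scalings. Wiz, the other gene called lower, changed sign in the same way (-1.17 with TMM, 2.01 with total counts) and also lay below both medians. Dnmt3b, the methyltransferase that methylates these promoters in the mouse embryo, had 0.40, 0.56 and 0.08 TPM in the tumours, against 0.12 and 0.10 TPM in normal pancreas (log2 fold change -0.53, SE 0.56, edgeR adjusted p = 0.43). Rest, the repressor of neuronal genes, had 0.87, 0.71 and 0.41 TPM in the tumours, against 0.38 and 0.31 TPM in normal pancreas (log2 fold change -0.50, SE 0.26, edgeR adjusted p = 0.13). Neither of the last pair passed the test, and both had a positive log2 fold change with total counts.

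**Figure D4:**
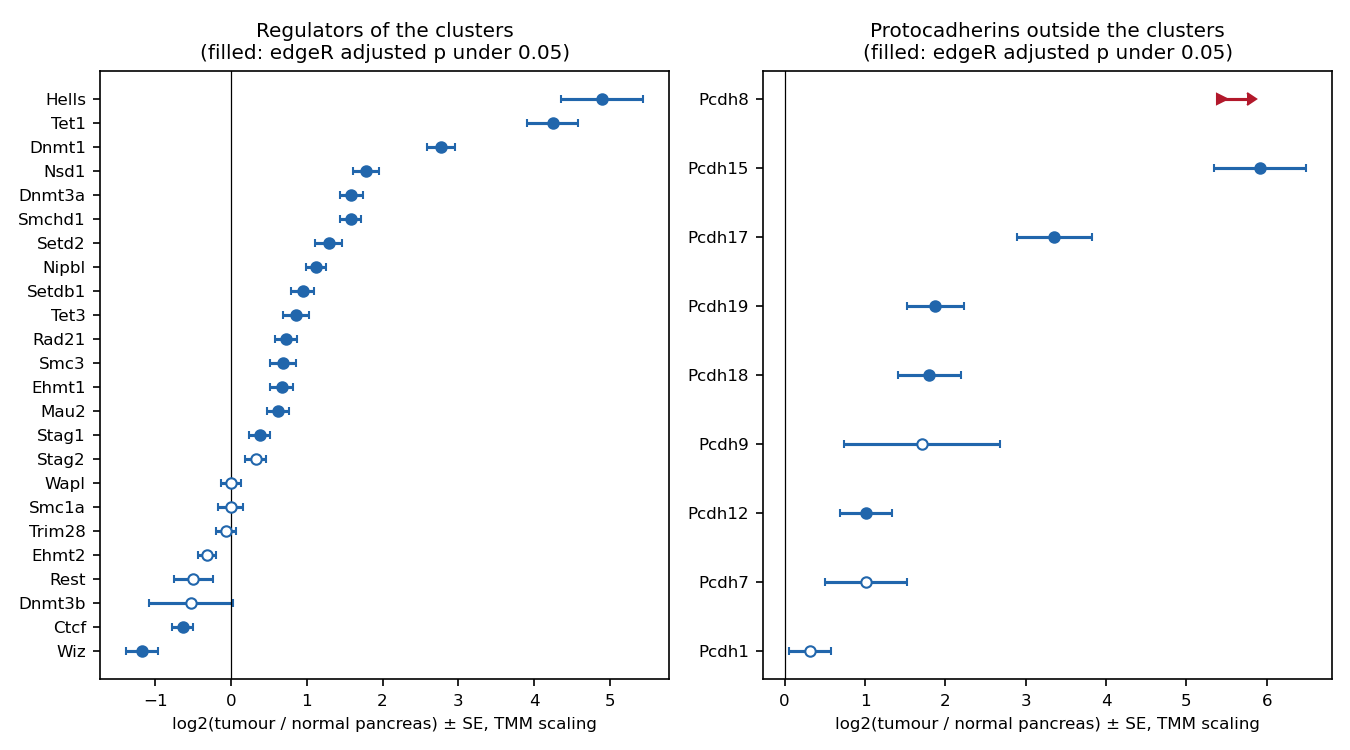
EdgeR log2 fold change ± SE of tumour over normal pancreas with TMM scaling, for 24 regulators of the clusters (left) and the 9 tested protocadherins outside the clusters (right); filled points have an adjusted p under 0.05, and the arrow for Pcdh8 is a lower bound. The regulators range from Wiz at -1.17 to Hells at 4.90. With scaling to total counts all 24 are above 0, where the median of all genes tested is 3.55.

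Protocadherins outside the clusters, which are single genes without constant exons shared with neighbours, were compared as the nearest relatives. Of 12 on the list, 9 were tested, and 6 were higher and 0 lower in tumours, against 39.2% and 27.8% of all genes. The median log2 fold change of the 9 was 1.80, against 0.38 over all genes. Pcdh15, known from the tip links of hair cells, had 5.54, 2.84 and 4.43 TPM in tumours 1, 2 and 3, against 0.04 and 0.01 TPM in normal pancreas (log2 fold change 5.92, SE 0.57, edgeR adjusted p = 0.00025). Pcdh17, a protein of brain synapses, had 1.25, 0.74 and 1.35 TPM in the tumours, against 0.03 and 0.04 TPM in normal pancreas (log2 fold change 3.36, SE 0.47, edgeR adjusted p = 0.0011). Pcdh19, the gene of an X-linked epilepsy in humans, had 0.46, 0.39 and 0.31 TPM in the tumours, against 0.05 and 0.03 TPM in normal pancreas (log2 fold change 1.88, SE 0.35, edgeR adjusted p = 0.0038). No tumour overlapped a normal library for these genes, which were picked by their small p. Every tumour lay above both normal libraries for 9 of the 12 on the list, against 46.8% of all genes tested. The summed level of the 12 was 18.8, 10.5 and 13.4 TPM in tumours 1, 2 and 3 and 2.24 and 2.32 TPM in normal pancreas, with Pcdh8 and Pcdh11x at 0 in both normal libraries.

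Of 22 genes on a list of partners of clustered protocadherins (among them kinases, the WAVE actin complex and neuroligins), 21 were tested, and 10 were higher and 4 lower in tumours, against 39.2% and 27.8% of all genes, with a median log2 fold change of 0.16 against 0.38 over all genes. The count higher was near the share over all genes and was 5 when either normal library was left out. Nlgn2, a postsynaptic adhesion protein, had 7.66, 5.38 and 5.49 TPM in tumours 1, 2 and 3, against 0.21 and 0.22 TPM in normal pancreas (log2 fold change 3.58, SE 0.18, edgeR adjusted p = 3.2e-05). Nlgn1, its relative at excitatory synapses, had 7.57, 3.97 and 3.69 TPM in the tumours, against 0.01 and 0 TPM in normal pancreas, with a ratio of pooled counts of 719 (95% exact interval 129 to 28401). Abi2, a subunit of the WAVE complex, had 6.30, 7.48 and 7.03 TPM in the tumours, against 0.33 and 0.28 TPM in normal pancreas (log2 fold change 2.94, SE 0.20, edgeR adjusted p = 6.8e-05). Every tumour lay above both normal libraries for these 3 genes, which were picked by their small p. The same held for 10 of the 22 on the list and 46.8% of all genes tested. With total counts all 21 were higher, as were 15681 of the 16810 genes tested.

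Neighbours on the chromosome moved in both directions. Of 34 protein-coding genes within 500 kb of the first and the last member or between the clusters, 29 were tested. Of these, 6 were higher and 10 lower in tumours, against 39.2% and 27.8% of all genes. The median log2 fold change of the 29 was -0.35, against 0.38 over all genes. Taf7, a general transcription factor gene inside the locus, had 0.59, 0.58 and 0.28 TPM in tumours 1, 2 and 3, against 0.29 and 0.16 TPM in normal pancreas (log2 fold change -0.36, SE 0.42, edgeR adjusted p = 0.47). Diaph1, an actin-nucleating formin behind the gamma cluster, had 3.24, 3.10 and 2.29 TPM in the tumours, against 2.77 and 2.99 TPM in normal pancreas (log2 fold change -1.505, SE 0.14, edgeR adjusted p = 0.0002). Ndufa2, a subunit of respiratory complex I in front of the alpha cluster, had 28.98, 30.09 and 26.92 TPM in the tumours, against 34.86 and 24.93 TPM in normal pancreas (log2 fold change -1.56, SE 0.17, edgeR adjusted p = 0.00043). Rell2, also behind the gamma cluster, was an exception with 4.75, 5.89 and 3.30 TPM in the tumours, against 0.04 and 0 TPM in normal pancreas and a ratio of pooled counts of 235 (95% exact interval 42.0 to 9287). Pcdh1 and Pcdh12, also on the list of protocadherins outside the clusters, are among these neighbours. So are the 3 readthrough genes of the locus (Gm42416, Gm37013 and Gm37388), of which only Gm42416 was tested, and it was not called. With total counts, 28 of the 29 were higher and 0 lower, at a median log2 fold change of 2.83 against 3.55 over all genes.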

How the data were processed

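RNA was sequenced from 3 tumours and 2 normal pancreas samples. Tools named in the submitters' processing notes are Trim Galore 0.60, STAR 2.7 and RSEM 1.31, with mm10 and GRCm38 as builds. The authors deposited RSEM estimated counts (expected counts), in which shared reads are split between genes, TPM values to 2 decimals, and the effective length of each gene as a value of another kind in bases. Library kit, strand setting and batch were not stated in the labels, so reads of overlapping antisense genes may be mixed, and preparation and tissue cannot be told apart.

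Counts were rounded and fitted with edgeR 4.0.16 in R 4.3.3 (quasi-likelihood test, TMM, filterByExpr, Benjamini-Hochberg over 16810 genes, threshold 0.05). SE is the absolute log2 fold change over the square root of F. Genes at 0 counts in normal pancreas are compared with a floor of 3 counts for the whole group, and those at 1 to 3 counts as ratios with 95% exact binomial intervals; intervals cover counting error only. Members and gene lists were chosen with earlier results of these data known. Named members are the C-type genes, the 5 with the highest TPM and the first and last gene of each cluster, plus any called lower; named list genes are the 3 with the smallest p, with Ctcf, Smchd1, Dnmt3b and Rest. Genes outside this rule were chosen after their values were seen. Alternatives used DESeq2 1.42.0, limma 3.58.1 on log2(TPM + 1) and log2(TPM + 0.1), other scalings and filters, and each library left out. All 58 gene identifiers match GENCODE M21 with version and symbol. The 92 spike-in entries, at 0 counts, were left out. Some list genes are not reported here by name.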

Additional observations from a re-analysis of the deposited data

How the results depend on the processing

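Over 15 alternatives to the TMM-scaled edgeR fit, the members called higher numbered between 42 and 58 and those called lower 0. Scaling to total counts gave 58, but it called 15681 of all 16810 genes tested higher. Upper quartile scaling gave 52 (7042 of 16810 genes) and DESeq2 53 (6514 of 19405). Protein-coding genes alone gave 51 (5051 of 14066), and tumours 1 and 2 summed gave 53 (7451 of 17806). Leaving out 1 library gave 42 to 53, with 42 without either normal library. Of the 50 calls, Pcdha4, Pcdhb3, Pcdhb22, Pcdhgb6, Pcdhga10 and Pcdhga11 were lost without normal pancreas 1 and again without normal pancreas 2, Pcdha12, Pcdhgb4 and Pcdhgb8 without normal pancreas 1 alone, and Pcdhga3 and Pcdhga5 without normal pancreas 2 alone; Pcdhgb4 was also lost without tumour 1 and Pcdhga11 without tumour 3. With 1 normal library left, that library is assumed to vary like the tumours. The cluster sums kept their direction and their side of the threshold throughout, at log2 fold changes of 2.94 to 9.66 for alpha, 3.49 to 7.87 for beta and 1.86 to 5.15 for gamma; the lowest alpha and beta values came with log2(TPM + 1), which compresses low levels. With 1 library left out they were 6.32 to 6.71, 4.48 to 4.84 and 1.86 to 2.13. Replicate numbers follow the order of deposit and do not pair the samples (correlation of deviations -0.07 for number 1 and -0.13 for number 2); with the number as a replicate block, 54 members were called higher and the cluster sums were 6.49, 4.71 and 1.92. Adding 3 readthrough genes of the locus, chosen after seeing the data, left the sum of all members at 2.74. Scaling to total counts, which ignores that acinar RNA fills the normal libraries, gave 24 regulators higher and 0 lower, in place of 15 and 2, and 21 partners higher and 0 lower, in place of 10 and 4. Of all 16810 genes tested, that scaling called 15681 higher and 398 lower. With 1 library left out, the regulators higher ranged from 10 to 15 and lower from 1 (without normal pancreas 2) to 2, and the partners higher from 5 (without either normal library) to 10 and lower from 2 (without normal pancreas 2) to 4. The C-type share of the gamma cluster in normal pancreas was 46.3% of TPM and 40.5% of counts; the share of TPM depends on effective lengths and 2-decimal rounding. In normal pancreas libraries 1 and 2, 11 and 12 alpha genes and 8 and 10 beta genes were at 0 counts. Folds are lower bounds for the 10 alpha and 6 beta genes at 0 in both. Tumour 3, with a TMM-scaled library size of 14440614 against 13225679 and 13577736 in normal pancreas, had all 58 members detected.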

Other observations

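Within the locus the annotation also places 22 non-coding genes, of which 5 were tested. Gm36858, Gm19035 and Gm10544 were called higher in tumours and 0 lower, against 39.2% and 27.8% of all genes. DESeq2, with values for 18, called 3 higher and 1 lower. The 3 genes called by edgeR passed the filter on low counts through the tumours alone, so their calls only describe the libraries. Gm10544 had 33, 25 and 11 counts in tumours 1, 2 and 3, against 0 in both normal libraries, at least 7.31-fold higher. Gm19035 had 44, 14 and 9 counts in the tumours, against 0 in normal pancreas, at least 7.10-fold higher. Gm36858 had 44.2, 19 and 15 counts in the tumours, against 0 in normal pancreas, at least 8.26-fold higher. The genes are counted without a stated strand, so their reads cannot be told apart from those of overlapping protocadherins. The 3 readthrough genes, which the annotation lists in the locus beside the members, had few counts, with 10.4, 27.4 and 0 for Gm42416 in tumours 1, 2 and 3 and 0 in both normal libraries.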
